A study of Homo sapiens with 9 samples.

Results

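The genes described here encode 3 angiopoietin-like proteins (ANGPTL4, ANGPTL6 and ANGPTL8), 3 lipases that act on lipoproteins in plasma or on the vessel wall (LPL, LIPC and LIPG), and 2 plasma proteins that remodel high density lipoprotein (HDL), LCAT and CETP. They were chosen by gene name, with earlier results of these libraries known, and are 8 of the 58735 genes in the deposited count and FPKM tables. RNA was sequenced from 9 libraries in 3 groups of 3. Huh-7 cells, a human hepatoma line with the wild-type genotype, were the control. Ako-3 cells are 1 Huh-7 clone in which APOB was knocked out with Cas9 and guide RNAs, and Mko-3 cells are 1 Huh-7 clone with an MTTP knockout. All cells were grown with fetal bovine serum and then kept overnight without serum before RNA was taken. Each knockout is a single clone, so a difference due to the knocked-out gene and one due to the clone cannot be told apart, and the same control libraries serve both knockouts.

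Apolipoprotein B (apoB) is the structural protein of very low density lipoprotein, and MTP, encoded by MTTP, loads it with lipid in hepatocytes. Once secreted, the triglyceride of these particles is hydrolysed by lipoprotein lipase and hepatic lipase, while endothelial lipase is a phospholipase that acts on HDL. Angiopoietin-like proteins made in liver and fat restrain these lipases, and LCAT and CETP esterify cholesterol on HDL and exchange cholesteryl ester between particles.

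The libraries held 14638727 to 20179760 counts on genes. Mitochondrial genes took 7.06% to 7.40% of counts in Ako-3 libraries and 5.52% to 6.17% in the other groups. The targeted genes were lower in their own clones. APOB was at 3354 ± 609 CPM (CPM are counts scaled to library size, here TMM-normalized; SD, n = 3) in Huh-7, 1315 ± 91.2 in Ako-3 and 3258 ± 147 in Mko-3 cells, and MTTP was at 634 ± 29.7, 572 ± 29.3 and 87.0 ± 3.86 CPM. All 10 hepatocyte markers examined had at least 10 counts in every library, and their summed level was 18771 to 19298 CPM in Huh-7, 22893 to 24148 in Ako-3 and 18613 to 19536 in Mko-3 libraries. The markers did not move together. In Huh-7, Ako-3 and Mko-3 cells, mean ALB was 8684, 8876 and 6244 CPM and mean AFP 3455, 3856 and 6050 CPM. FGB was lowest in Ako-3 cells, at 212, 195 and 230 CPM. All markers but FGB and AFP had their highest mean in Ako-3 cells. Of the 5 endothelial markers, KDR and TEK were at 0, and the summed level of the list was 76.1 to 86.6 CPM in Huh-7, 105 to 114 in Ako-3 and 55.1 to 60.4 in Mko-3 libraries, nearly all of it PECAM1. Of the 5 macrophage markers, CD163 was at 0 in every group, and the sum was 5.41 to 7.09, 10.5 to 11.3 and 6.57 to 9.01 CPM. Nearly all of it was CD14, at means of 5.95, 10.5 and 7.37 CPM in the same order of groups. In total per group, PTPRC had 0, 2 and 3 counts, CSF1R 3, 2 and 8, and MARCO 9, 25 and 21. Of the 5 adipocyte markers, ADIPOQ, LEP and FABP4 were at 0 and the sum stayed at 0.453 to 1.72 CPM.

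Differences were fitted on raw counts over all genes with edgeR's quasi-likelihood test, in separate fits of the 6 libraries of a comparison. A gene was called if it differed by at least 2-fold with an adjusted p (Benjamini-Hochberg, over all tested genes) no higher than 0.05. Of the 8 genes, 5 had enough counts to be tested (ANGPTL4, ANGPTL8, LIPC, LIPG and LCAT). ANGPTL8 was the only 1 of these 5 called in Ako-3 against Huh-7 cells, where 8.52% of all tested genes were called. None of the 5 was called by edgeR in Mko-3 against Huh-7 cells, where 11.0% of tested genes were. DESeq2 also called 0, and 3 of the 5 had an unadjusted p under 0.05. ANGPTL8 alone was called in Mko-3 against Ako-3 cells, where 5.73% were. By adjusted p without a fold limit, 4, 3 and 1 of the 5 passed in these comparisons, against 49.9%, 54.0% and 41.6% of all tested genes, which is no result about these genes. The CPM of the libraries of 2 groups did not overlap for 3, 3 and 2 of the 5, against 57.8%, 60.7% and 49.6% of all tested genes. Fold changes of the 8 genes are given with their standard errors as a description and without p-values, since the genes were chosen with these values known.

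Per length, LIPC was the most abundant of the 8 in each group, at a mean of 17.7 FPKM in Huh-7 cells, followed by ANGPTL4 at 14.4, LIPG at 3.70, LCAT at 2.52 and ANGPTL8 at 2.35. The other 3 were below 0.2 FPKM in every library. In Huh-7 cells the ranges of LIPC and ANGPTL4 over the libraries overlapped, as did those of LCAT and ANGPTL8. Within each Huh-7 library LIPC was above ANGPTL4, by least in replicate 1, at 17.7 and 16.8 FPKM. The order of LCAT and ANGPTL8 changed between libraries, at 2.29 and 2.31 FPKM in replicate 1 and 2.76 and 2.29 in replicate 3. ANGPTL8 took the third place in Ako-3 cells, at 7.30 FPKM, and the fifth in Mko-3 cells, at 1.21 FPKM. These are bulk samples, in which fewer expressing cells and less RNA per cell cannot be told apart. LIPG is divided by an exonic length of 13112 bases in the files, which lowers its FPKM beside the other genes.

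**Figure D1:**
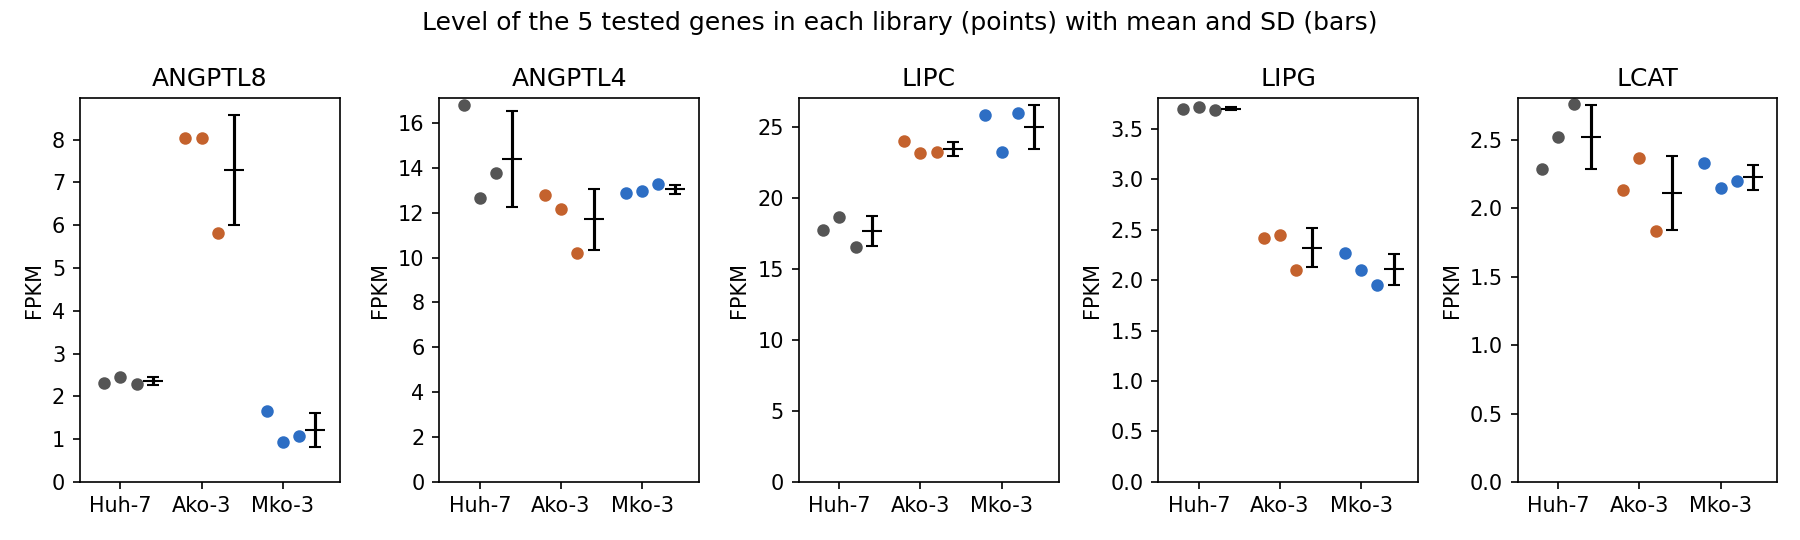
FPKM of the 5 tested genes in each library (points, 3 libraries per group) with the group mean and SD (bars); each panel has its own axis from 0. ANGPTL8 in Ako-3 cells lies between 5.81 and 8.04 FPKM, above all other libraries, and LIPG in both clones lies below the Huh-7 libraries.

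ANGPTL8 encodes a small liver and fat protein that rises on feeding and takes part in the inhibition of lipoprotein lipase. The gene (ENSG00000130173) lies on the plus strand of chromosome 19 at 11237450 to 11241943 (hg38), within the span of DOCK6, which is on the opposite strand. To show the sequence before its RefSeq start, the 250 bases upstream of that start (RefSeq, GRCh38.p14) are printed here, with those of ANGPTL4 and LIPC, the most abundant of the 8 genes. The 3 windows lie within the gene spans given in this text, which begin upstream of the RefSeq starts. The capitals mark 5 motifs found on either strand, which were picked after these sequences had been seen: the TATA box letters TATAAA, the CCAAT box, the E-box letters CACGTG, the GC box letters GGGCGG, and GTTAAT, letters of the start of the HNF1 consensus, bound by a liver transcription factor.
ANGPTL8 (chr19:11239369-11239618, plus strand): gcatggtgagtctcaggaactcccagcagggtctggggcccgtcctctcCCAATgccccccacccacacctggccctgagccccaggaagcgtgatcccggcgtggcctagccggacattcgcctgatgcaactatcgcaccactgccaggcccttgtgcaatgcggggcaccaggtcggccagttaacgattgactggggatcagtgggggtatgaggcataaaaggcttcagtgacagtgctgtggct
ANGPTL4 (chr19:8363905-8364154, plus strand): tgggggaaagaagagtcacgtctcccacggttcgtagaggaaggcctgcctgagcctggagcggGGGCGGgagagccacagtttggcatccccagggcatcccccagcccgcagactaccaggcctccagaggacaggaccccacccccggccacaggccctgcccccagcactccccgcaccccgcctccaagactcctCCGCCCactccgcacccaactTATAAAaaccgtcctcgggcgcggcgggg
LIPC (chr15:58431741-58431990, plus strand): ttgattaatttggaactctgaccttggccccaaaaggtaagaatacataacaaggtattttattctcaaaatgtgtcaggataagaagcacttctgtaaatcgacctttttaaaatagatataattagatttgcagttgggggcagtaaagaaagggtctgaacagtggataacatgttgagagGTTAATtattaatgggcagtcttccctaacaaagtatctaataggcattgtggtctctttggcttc
The window of ANGPTL8 held CCAAT at -201 to -197 from the start, a motif found in 32.0% of the 35116 RefSeq windows of this length. That of ANGPTL4 held TATAAA at -29 to -24, found in 10.7%, and GGGCGG on both strands, found in 42.6%. That of LIPC held GTTAAT at -66 to -61, found in 6.23%. No window of the 3 held CACGTG, found in 6.34%. The GC content was 62.4%, 68.8% and 36% against a median of 58% over all windows. A match describes the letters and not a bound site. RefSeq windows were found for 6 of the 8 genes, while LPL and LCAT were not matched.

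ANGPTL8 had 53, 46 and 51 counts in the Huh-7 libraries, 163, 196 and 124 in the Ako-3 libraries, and 36, 20 and 20 in the Mko-3 libraries. In FPKM these were 2.31, 2.46 and 2.29, then 8.04, 8.04 and 5.81, then 1.65, 0.923 and 1.06. The 3 groups did not overlap, with Ako-3 highest and Mko-3 lowest. ANGPTL8 was 3.10-fold higher in Ako-3 than in Huh-7 cells, a log2 fold change of 1.63 ± 0.18 (SE). The log2 fold change was -0.96 ± 0.27 in Mko-3 against Huh-7 cells and -2.59 ± 0.20 in Mko-3 against Ako-3 cells. Leaving out each library in turn gave 1.56 to 1.77, -1.25 to -0.78 and -2.88 to -2.41. Against Huh-7 cells the Mko-3 value passed the fold limit only without Mko-3 replicate 1, when it was -1.25. The order of the groups, Ako-3 above Huh-7 above Mko-3, was also that of PECAM1, which makes up nearly all of the summed endothelial markers, at 77.6, 106 and 51.1 CPM in Huh-7, Ako-3 and Mko-3 cells. CDH5 ran the other way, at 5.15, 4.22 and 6.49 CPM, VWF had at most 5 counts in any library, and KDR and TEK were at 0. The summed hepatocyte markers were also highest in Ako-3 cells, though FGB and AFP were not. The part of these markers in the result was not tested. DOCK6 shares 73 exonic bases with ANGPTL8 in GENCODE release 44, and the library kit does not mark strand. Its level was 76.2 ± 3.18, 69.4 ± 4.27 and 52.7 ± 1.97 CPM, with log2 fold changes of -0.14 ± 0.07 (adjusted p = 0.102, edgeR's quasi-likelihood test), -0.54 ± 0.07 (adjusted p = 1.62e-06) and -0.40 ± 0.06 (adjusted p = 6.33e-08) in the same order of comparisons.

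ANGPTL4, which inhibits lipoprotein lipase and is induced by fasting and fatty acids, had 783, 479 and 623 counts in Huh-7, 527, 601 and 441 in Ako-3 and 570, 571 and 507 in Mko-3 libraries. Its levels were 16.8, 12.6 and 13.8 FPKM, then 12.8, 12.1 and 10.2, then 12.9, 13.0 and 13.3. The gene (ENSG00000167772) lies on the plus strand of chromosome 19 at 8363289 to 8374373, and RAB11B-AS1, which overlaps it by 1 base, was at 2.53 to 4.38 CPM in the group means. Huh-7 libraries overlapped those of both clones, and replicate 1 of Huh-7 was the highest of the 9, while the Mko-3 libraries lay above those of Ako-3. The log2 fold changes were -0.31 ± 0.11 in Ako-3 and -0.16 ± 0.10 in Mko-3 against Huh-7 cells, and 0.15 ± 0.08 between the clones, a 95% interval of -0.01 to 0.30. Leaving out each library in turn gave -0.39 to -0.18, -0.23 to -0.03 and 0.06 to 0.21. The values nearest to 0 came without Huh-7 replicate 1 in both comparisons with Huh-7 cells and without Ako-3 replicate 3 between the clones. The ANGPTL4 to ANGPTL8 ratio of FPKM within a library was 6.14 ± 1.08 in Huh-7 (SD, n = 3), 1.62 ± 0.12 in Ako-3 and 11.5 ± 3.26 in Mko-3 cells. The ratio was lower in every Ako-3 library than in any other and higher in every Mko-3 library.

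ANGPTL6, an angiopoietin-like protein made in liver, had 6, 2 and 5 counts in Huh-7, 0, 2 and 3 in Ako-3 and 5, 2 and 0 in Mko-3 libraries. The gene (ENSG00000130812) lies on the minus strand of chromosome 19 at 10092338 to 10102796. It did not pass the filter on low counts. The summed counts correspond to 0.262 CPM in Huh-7, 0.0912 in Ako-3 and 0.137 in Mko-3 cells, with exact Poisson 95% intervals of 0.139 to 0.448, 0.0296 to 0.213 and 0.0551 to 0.282 that overlap and cover counting error only. ANGPTL6 shares 442 exonic bases with C19orf66 on the opposite strand, so reads there cannot be assigned to one of the genes. C19orf66 was at 17.2 ± 2.12, 15.6 ± 1.11 and 17.4 ± 0.99 CPM.

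Of the other ANGPTL genes, 4 were near the floor: ANGPTL1 had 4, 2 and 0 counts in total per group, ANGPTL2 had 8, 7 and 10, ANGPTL5 had 0, 2 and 0, and ANGPTL7 had 0, 1 and 2.

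LIPC encodes hepatic lipase, made by hepatocytes, which hydrolyses triglyceride and phospholipid of remnants and HDL. The gene (ENSG00000166035) lies on the plus strand of chromosome 15 at 58410569 to 58569843 (hg38). LIPC had 1729, 1476 and 1564 counts in Huh-7, 2063, 2392 and 2102 in Ako-3 and 2386, 2135 and 2073 in Mko-3 libraries. Its levels were 17.7, 18.6 and 16.6 FPKM, then 24.0, 23.1 and 23.2, then 25.8, 23.2 and 26.0. All libraries of both clones lay above all Huh-7 libraries, and the clones overlapped each other. The log2 fold changes were 0.41 ± 0.07 and 0.49 ± 0.07 against Huh-7 cells, or 32.6% and 40.5% higher, and 0.08 ± 0.05 between the clones, with a 95% interval of -0.01 to 0.18. The 5 genes whose spans overlap LIPC share no exonic base with it in GENCODE release 44, and the most abundant, ALDH1A2, was at 1.38 ± 0.67, 0.833 ± 0.11 and 1.60 ± 0.09 CPM. The other 4, LIPC-AS1, AC084781.1, AC018904.2 and AC084781.2, had at most 5 counts in any library.

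LIPG encodes endothelial lipase, a phospholipase that acts on HDL and is made by endothelium and also by liver. The gene (ENSG00000101670) lies on the plus strand of chromosome 18 at 49560699 to 49599182. LIPG had 910, 744 and 881 counts in Huh-7, 526, 639 and 480 in Ako-3 and 529, 487 and 395 in Mko-3 libraries. Its levels were 3.69, 3.72 and 3.69 FPKM, then 2.42, 2.44 and 2.10, then 2.26, 2.10 and 1.96. Both clones lay below Huh-7 in all libraries and overlapped each other. The log2 fold changes were -0.68 ± 0.08 and -0.82 ± 0.08 against Huh-7 cells, or 0.626 and 0.565 times the Huh-7 level, and -0.15 ± 0.08 between the clones, with a 95% interval of -0.30 to 0.01. The LIPC to LIPG ratio of FPKM was 4.77 ± 0.27 (SD, n = 3) in Huh-7, 10.2 ± 0.83 in Ako-3 and 11.9 ± 1.18 in Mko-3 cells, and the lowest ratio of a clone library, 9.47, was above the highest of a Huh-7 library, 5.02.

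**Figure D2:**
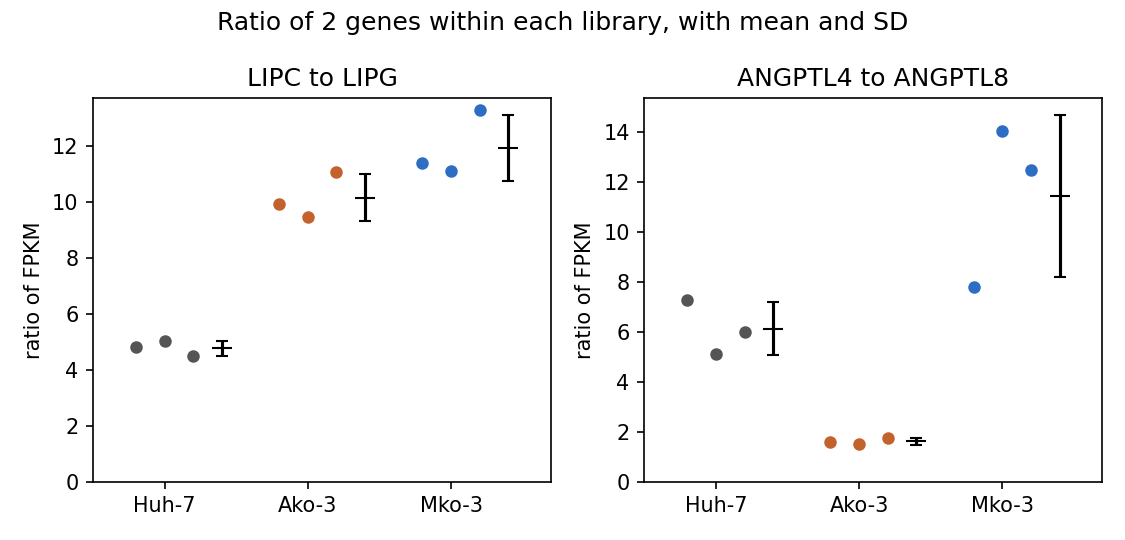
Ratio of LIPC to LIPG and of ANGPTL4 to ANGPTL8 FPKM within each library (points, 3 per group), with mean and SD (bars). The LIPC to LIPG ratio of both clones is above 9, and the ANGPTL4 to ANGPTL8 ratio is lowest in Ako-3 and highest in Mko-3 cells.

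LPL encodes lipoprotein lipase, made mainly by fat and muscle rather than by adult hepatocytes. It had 3, 0 and 0 counts in Huh-7, 0, 0 and 0 in Ako-3 and 1, 1 and 3 in Mko-3 libraries. A count of 0 over the 3 Ako-3 libraries allows up to 0.0547 CPM, taken as 3 counts. No fold change is given, since all groups lie at or near the floor. CETP, which exchanges cholesteryl ester for triglyceride between lipoproteins, had 2, 3 and 3 counts, then 0, 2 and 0, then 1, 0 and 0. The summed level was 0.161 CPM in Huh-7, with an interval of 0.0696 to 0.318, and 0.0365 (0.00442 to 0.132) and 0.0196 (0.000495 to 0.109) CPM in Ako-3 and Mko-3 cells. The gene (ENSG00000087237) lies on the plus strand of chromosome 16 at 56961850 to 56983845. The CPM of both clones lay below those of Huh-7 cells without overlap, at no more than 3 counts in any library. In raw counts Ako-3 replicate 2 equalled Huh-7 replicate 1, at 2 each, or 0.102 and 0.107 CPM. LPL likewise did not overlap between the clones, with Mko-3 above Ako-3, at no more than 3 counts. CETP did not pass the filter on low counts, and edgeR without that filter called none of ANGPTL6, LPL and CETP in the 3 comparisons.

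LCAT encodes the enzyme that esterifies HDL cholesterol in plasma, and is made by liver. It had 113, 101 and 132 counts in Huh-7, 93, 124 and 84 in Ako-3 and 109, 100 and 89 in Mko-3 libraries, or 2.29, 2.52 and 2.76, then 2.14, 2.37 and 1.83, then 2.33, 2.15 and 2.20 FPKM. The gene (ENSG00000213398) lies on the minus strand of chromosome 16 at 67939750 to 67944131. The groups overlapped in every comparison. The log2 fold changes were -0.26 ± 0.16, with a 95% interval of -0.57 to 0.06, and -0.19 ± 0.16 (-0.50 to 0.12) against Huh-7 cells, and 0.06 ± 0.16 (-0.25 to 0.38) between the clones, where the sign reversed to -0.03 without Ako-3 replicate 3. Leaving out each library in turn gave -0.34 to -0.16 and -0.26 to -0.12 against Huh-7 cells. LCAT shares 336 exonic bases with SLC12A4 on the same strand, at 74.7 ± 5.92, 53.9 ± 4.02 and 78.5 ± 7.44 CPM. Against Huh-7 cells, SLC12A4 differed by -0.48 ± 0.08 on the log2 scale in Ako-3 cells (adjusted p = 3.89e-05, edgeR's quasi-likelihood test).

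**Figure D3:**
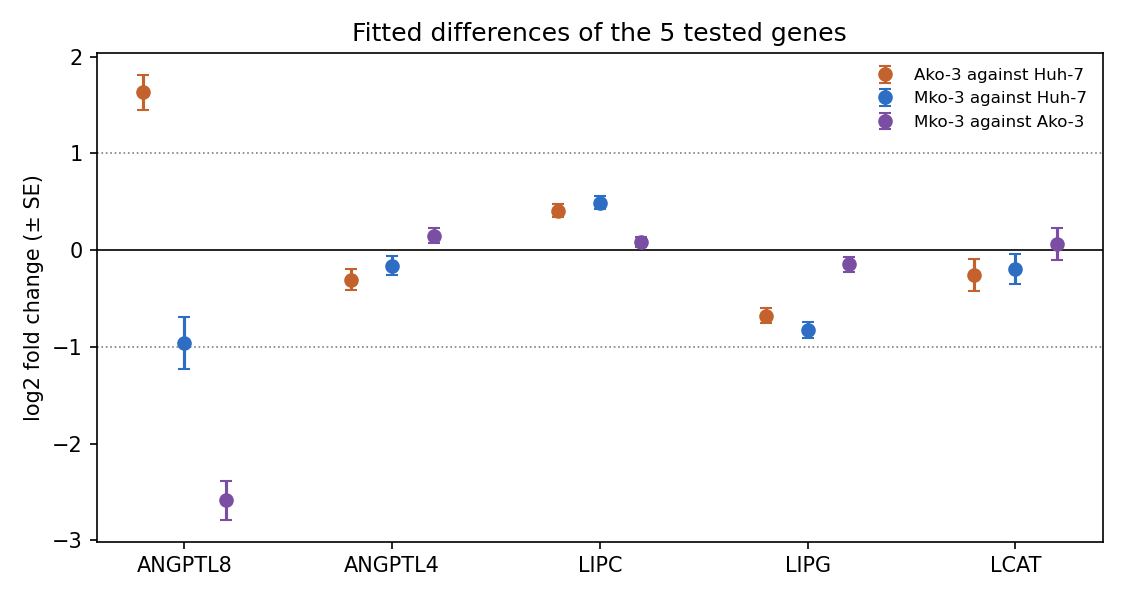
Log2 fold change with SE (bars) of the 5 tested genes in the 3 comparisons; the dotted lines mark the fold limit at -1 and 1. ANGPTL8 differs in sign between the clones against Huh-7 cells, while LIPC is above 0 and LIPG below 0 in both.

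The genes of most similar pattern over the 9 libraries were found among 12926 genes by Pearson's r of log2 CPM, as a description, since the libraries fall into 3 groups. For ANGPTL8 these were SLC25A20 (r = 0.99), PRAME (0.99) and ENPP3 (0.98). For LIPC they were PLEKHO1, UTP6 and MLXIP (0.99 each), and for LIPG ARHGAP19, NAMPT and NKIRAS1 (0.99 each). For ANGPTL4 they were LINC01137, BBIP1 and IMMP2L (0.94, 0.93 and 0.93), and for LCAT AKAP10, FZD3 and ZNF283 (0.96, 0.95 and 0.94). Many genes were nearly as alike: r was over 0.9 for 242 genes with ANGPTL8, 1403 with LIPC and 844 with LIPG. It was over 0.9 for 10 genes with ANGPTL4 and 12 with LCAT. Between LIPC and LIPG, r was -0.94.

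Genes that work with these proteins were examined in 9 lists of 129 distinct genes. Of those tested, 9 of 111 were called in Ako-3 against Huh-7, 17 of 113 in Mko-3 against Huh-7 and 13 of 113 in Mko-3 against Ako-3 cells, or 8.11%, 15.0% and 11.5%, beside 8.52%, 11.0% and 5.73% of all tested genes. In the list of apolipoproteins that act as lipase cofactors or inhibitors, 6 of 7 were tested. All 6 had positive log2 fold changes in Ako-3 against Huh-7 cells, with a median of 0.56 against -0.01 over all tested genes, and 4 passed the adjusted p, against 25.5% of all tested genes that passed it in that direction. All 6 were negative in Mko-3 against Ako-3 cells, with a median of -0.69, and 5 passed, against 20.6% of all tested genes in that direction. Both comparisons use the same Ako-3 libraries. In Mko-3 against Huh-7 cells 5 of the 6 were negative, with a median of -0.39. There 4 passed, all negative, against 27.1% of all tested genes in that direction. None of the 6 was called there by edgeR or DESeq2, where 11.0% of all tested genes were by edgeR. The summed hepatocyte markers were also highest in Ako-3 cells, though FGB and AFP were not. The part of the hepatocyte markers in these values was not tested. APOH, which binds phospholipid, rose in Ako-3 cells by 1.23 ± 0.06 (log2 fold change and SE, as in the values below, adjusted p = 3.90e-12, edgeR's quasi-likelihood test), from 71.6 ± 0.69 to 169 ± 4.33 CPM. APOA5, an activator of lipoprotein lipase, was at 9.67 ± 0.80, 18.1 ± 3.69 and 6.58 ± 0.85 CPM in Huh-7, Ako-3 and Mko-3 cells and fell in Mko-3 against Ako-3 cells, by -1.47 ± 0.13 (adjusted p = 3.11e-15, edgeR).

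In the HDL list, 2 of 13 were called in Ako-3 and 4 of 14 in Mko-3 against Huh-7 cells. These are 15.4% and 28.6%, beside 8.52% and 11.0% of all tested genes. APOA2, an HDL apolipoprotein, rose in Ako-3 cells by 1.02 ± 0.06 (adjusted p = 3.64e-11, edgeR). It did not reach the fold limit without Ako-3 replicate 2, at 0.98. APOA2 is also 1 of the 10 hepatocyte markers, whose summed level was highest in Ako-3 cells, though FGB and AFP were not. The part of these markers in its rise was not tested. PLTP, which transfers phospholipid to HDL, fell in Mko-3 cells, with a log2 fold change of -1.20 ± 0.06 (adjusted p = 2.56e-12, edgeR), from 329.8 ± 15.6 to 145 ± 6.27 CPM. ABCG1, a cholesterol exporter, fell in the same cells, at -1.14 ± 0.18 (adjusted p = 1.47e-04, edgeR). SAA4 fell in both, at -1.30 ± 0.34 (adjusted p = 0.00363, edgeR) and -1.54 ± 0.38 (adjusted p = 0.00151). PON1, an HDL esterase, had at most 9 counts in any Huh-7 and 5 in any Ako-3 library and 18 to 25 in Mko-3 libraries.

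Among the lipases related to these genes, 5 of 15 were tested. In Mko-3 against Huh-7 cells 1 was called, or 20%, beside 11.0% of all tested genes. None was called in the other comparisons by edgeR or DESeq2. LIPH, a phospholipase, rose in Mko-3 cells by 1.54 ± 0.13 (adjusted p = 2.56e-09, edgeR), from 6.55 ± 0.87 to 19.3 ± 1.44 CPM. In the list for maturation, anchoring and clearance of lipases, none of 17 was called in either clone against Huh-7 cells by edgeR or DESeq2, while 9 in Ako-3 and 14 in Mko-3 cells had an unadjusted p under 0.05. By adjusted p without a fold limit, 8 and 11 of the 17 passed, beside 49.9% and 54.0% of all tested genes. HSPG2, a heparan sulfate proteoglycan, was called higher in Mko-3 than in Ako-3 cells, by 1.27 ± 0.07 (adjusted p = 3.95e-07, edgeR).

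Among 31 transcription regulators of lipid genes, 2 were called in Ako-3 and 4 in Mko-3 cells, all lower than in Huh-7 cells. These are 6.45% and 12.9% of the list, beside 8.52% and 11.0% of all tested genes. Called or not, 13 had positive and 18 negative log2 fold changes in Ako-3 cells, and 7 and 24 in Mko-3 cells. MLXIPL, which encodes the carbohydrate-responsive factor ChREBP, fell in Mko-3 cells, at -2.13 ± 0.10 (adjusted p = 7.32e-13, edgeR), from 64.5 ± 5.80 to 14.8 ± 2.13 CPM, and was at 41.7 ± 2.27 CPM in Ako-3 cells. CEBPB fell in Mko-3 cells, at -1.29 ± 0.07 (adjusted p = 2.58e-12, edgeR). NR3C1, the glucocorticoid receptor, fell in both, at -1.25 ± 0.12 (adjusted p = 5.12e-08, edgeR) and -1.02 ± 0.11 (adjusted p = 6.41e-08, edgeR). The latter did not reach the fold limit without Mko-3 replicate 1 or 3 or Huh-7 replicate 3, at -0.98, -0.97 and -0.95. PPARGC1A, a coactivator, had 27 to 48 counts in Huh-7, 12 to 14 in Ako-3 and 1 to 6 in Mko-3 libraries.

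Of 10 tested targets of the sterol receptor LXR, none was called in Ako-3 cells by edgeR or DESeq2. There 8 had an unadjusted p under 0.05. In Mko-3 against Huh-7 cells 4 were called, all lower, or 40%, beside 11.0% of all tested genes. PLTP and ABCG1, already given for the HDL list, are among these 4. In Ako-3 against Huh-7 cells, 7 of the 10 passed the adjusted p without a fold limit, beside 49.9% of all tested genes. ABCG5 and ABCG8, the partners of a sterol exporter, fell in Mko-3 cells, at -2.55 ± 0.19 (adjusted p = 5.31e-10, edgeR) and -1.82 ± 0.15 (adjusted p = 5.25e-08, edgeR). In Mko-3 against Ako-3 cells all 10 LXR targets were negative, with a median of -0.49, 8 of them past the adjusted p. All 10 tested targets of SREBP-1c and ChREBP were also negative between the clones, with a median of -0.40, and all 10 passed the adjusted p, beside the 20.6% given above. PKLR, the liver pyruvate kinase and a ChREBP target, fell in Mko-3 against Huh-7 cells, at -1.28 ± 0.11 (adjusted p = 4.71e-09, edgeR), as did TXNIP, at -1.23 ± 0.07 (adjusted p = 4.79e-12).

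Of the 14 tested PPAR targets, 8 had positive and 6 negative log2 fold changes in Ako-3 against Huh-7 cells, with a median of 0.04. In Mko-3 against Huh-7 cells 5 were positive and 9 negative, with a median of -0.15. In Ako-3 cells 1 of the 14 was called higher and 1 lower, or 14.3%. In Mko-3 cells 1 was called higher and 0 lower, or 7.14%. The shares of all tested genes called were 8.52% and 11.0%. PDK4, a PPAR-induced kinase, fell in Ako-3 cells, at -1.09 ± 0.21 (adjusted p = 1.80e-04, edgeR), and was at -0.96, short of the fold limit, without Huh-7 replicate 3. Of the HIF targets, 2 of 11 were called in Ako-3 and 3 of 12 in Mko-3 cells. These are 18.2% and 25%, beside the same 8.52% and 11.0% of all tested genes. EGLN3, a hypoxia-induced hydroxylase, rose in Ako-3 cells by 1.11 ± 0.10 (adjusted p = 3.02e-08, edgeR), SLC2A1, a glucose transporter, rose in Mko-3 cells by 1.17 ± 0.08 (adjusted p = 1.28e-10, edgeR), and ANKRD37 fell in both, at -1.23 ± 0.25 and -1.18 ± 0.24 (adjusted p = 3.06e-04 and 2.86e-04, edgeR). CA9 had 1 to 11 counts in Huh-7, 3 to 7 in Ako-3 and 41 to 65 in Mko-3 libraries.

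**Figure D4:**
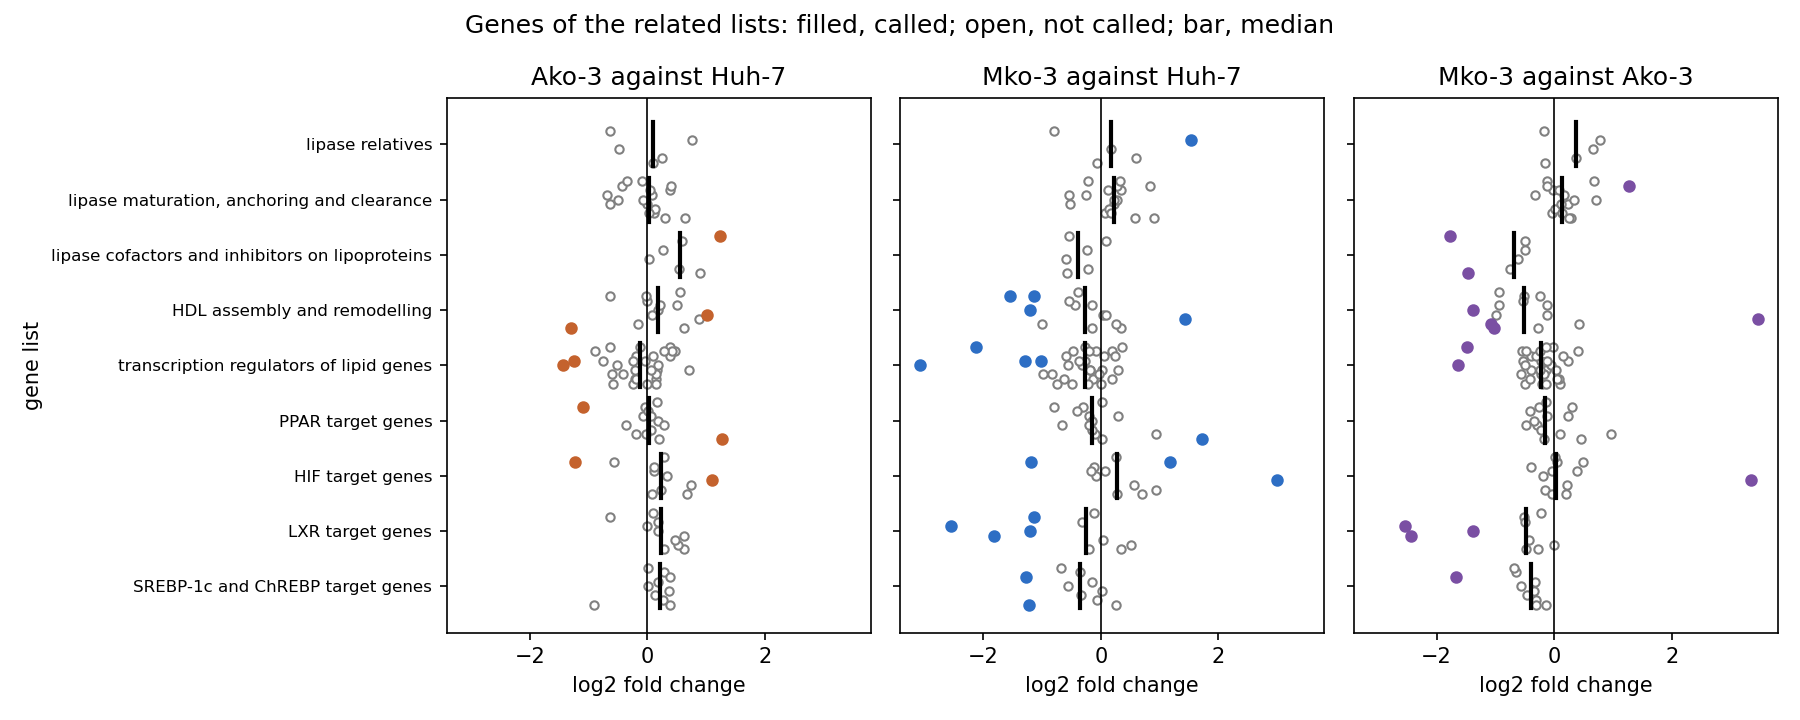
Log2 fold change of each tested gene of the 9 lists (rows) in the 3 comparisons (panels); filled points were called, open points were not, and the bar is the median of a list. In Mko-3 against Ako-3 cells the medians of the lipase cofactor, LXR and SREBP-1c and ChREBP lists are -0.69, -0.49 and -0.40.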

How the data were processed

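RNA from 9 cell samples was sequenced as poly-A libraries on a kit that does not mark strand. Per the labels and the methods of the study, the authors aligned paired reads to hg38 with HISAT2 2.0.5 and counted them on genes with featureCounts 1.5.0-p3. They deposited raw counts without normalization for 58735 genes, and FPKM, made by the authors from the counts, the gene lengths and a library size. The labels also name GRCh37 and hg19. The files' positions of the 8 genes were those of GENCODE release 44 on hg38 to within 118 bases at each end, so hg38 is used throughout.

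Counts were tested with edgeR 4.0.16 in R 4.3.3: normalization by TMM, genes kept by filterByExpr (minimum count 10), then a robust quasi-likelihood fit and F test, with limma 3.58.1 and DESeq2 1.42.0 for alternatives. The SE is the log2 fold change divided by the square root of F. CPM are TMM-normalized over 9 libraries, and log2 CPM use a prior count of 2. Levels of different genes were compared in FPKM only. The method was tested on simulated data. The labels call the replicates biological and say no more, so p-values measure the spread between these libraries. With 3 against 3, no exact permutation p for a single value can go below 0.1.

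The members and the gene lists were chosen with earlier results of these data known. The named genes are the 8 genes, genes overlapping them, other ANGPTL genes with a count, up to 3 called genes with the smallest adjusted p per list and comparison, the 3 genes most like each tested member at an average log2 CPM of at least 1, and APOB and MTTP. Some genes that this rule names are not reported here.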

Additional observations from a re-analysis of the deposited data

Results flagged for a closer look

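The effects of the knockouts against the same Huh-7 libraries were set side by side, and genes were listed that were called between the clones directly (Mko-3 against Ako-3). The knockouts are of different genes, each in 1 clone. Of the 8 genes, ANGPTL8 was listed, at 1.63 in Ako-3 and -0.96 in Mko-3 against Huh-7 cells, and -2.59 ± 0.20 (log2 fold change, SE) between the clones. Among the related genes in the lists, those called lower in Mko-3 than in Ako-3 cells were ABCG5 (-2.54 ± 0.16), ABCG8 (-2.44 ± 0.12), APOH (-1.78 ± 0.05), PKLR (-1.67 ± 0.09), PPARGC1A (-1.64 ± 0.54), MLXIPL (-1.49 ± 0.09), APOA5 (-1.47 ± 0.13), PLTP (-1.38 ± 0.04), SOAT2 (-1.07 ± 0.09) and PON3 (-1.03 ± 0.20), the last of which falls outside the rule for named genes and was chosen after its values were seen. Those called higher were PON1 (3.47 ± 0.57), CA9 (3.35 ± 0.37) and HSPG2 (1.27 ± 0.07). PON1 and CA9 had at most 7 counts in any Ako-3 library, so their fitted values depend on the prior count, and PPARGC1A had at most 6 in any Mko-3 library.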

How the results depend on the processing

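The direction of the 5 tested genes and their side of the thresholds did not change under 193 of 195 alternative values. The exceptions were ANGPTL8 in Mko-3 against Huh-7 cells, called without Mko-3 replicate 1 (-1.25), so that 0 to 1 of these genes were called there when libraries were left out, and LCAT between the clones, which reversed to -0.029 without Ako-3 replicate 3 (range -0.029 to 0.16). Requiring 10 counts in every library gave 841, 1113 and 511 called genes in Ako-3 and Mko-3 against Huh-7 and Mko-3 against Ako-3 cells, in place of 1345, 1739 and 890, over fewer tested genes, and limma on log2(FPKM + 1) gave 317, 429 and 200, a scale on which low genes change less. With limma, 3 and 11 related genes were called in Ako-3 and Mko-3 against Huh-7 cells in place of 9 and 17. Libraries did not overlap in 8 of 15 pairs of groups in FPKM and in CPM. Same-numbered libraries did not deviate together (r from -0.072 to 0.064). This cannot show whether they were grown or prepared together, which the labels do not state. With the replicate number as a block, 1336, 1730 and 899 genes and 1, 0 and 1 of the 8 genes were called. ANGPTL6, LPL and CETP had too few counts for the filter, and without it edgeR called 1, 0 and 1 of the 8 genes, none of these 3 among them.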
